A study of Mus musculus with 1617 samples.

Results

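Macrophages of the embryonic mouse brain at E16.5 were compared between cells with a high level of F13a1, which encodes a subunit of the clotting enzyme factor XIII and is used to mark macrophages of the brain's borders, and cells with a high level of Sall1, a zinc finger transcription factor used to mark microglia. The cells were chosen by these 2 values alone. A cell with F13a1 at 100 TPM or more was called F13a1-high, and a cell with Sall1 at 100 TPM or more was called Sall1-high. Of the whole-brain cells at E16.5, 54 were F13a1-high, 22 were Sall1-high, 50 reached the level for neither gene and 0 for both. The 76 chosen cells belong to a series of 1617 single brain macrophages, sorted for CD45, CD11b and F4/80 and against Ly6C, in which each sample is 1 cell. All E16.5 cells carry the same label, whole-brain microglia of that embryonic day, with no strain, sex, genotype or treatment stated. No animal, litter or chip was named either, so each set of cells stands as 1 sample, no test of the difference was made, and all values are descriptions of these cells.

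Border-associated macrophages line the meninges, the perivascular spaces and the choroid plexus, whereas microglia lie within the brain tissue. Both arise largely from yolk sac progenitors and depend on the receptor Csf1r. Border macrophages are known for scavenger and lectin receptors such as Lyve1, Mrc1, Cd163 and Stab1. Microglia are known for the ADP receptor P2ry12, for Tmem119, Sparc and Siglech, and for a programme that depends on TGF-beta signalling, with Sall1 as one of its regulators.

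The promoters of Pf4 and Mrc1, used as border markers, and of P2ry12 and Sparc, used as microglia markers, are shown because the description of single cells turns on these genes. Of 7 genes looked up (F13a1, Sall1, Lyve1, Mrc1, P2ry12, Pf4 and Sparc), 6 matched the RefSeq promoter table of build GRCm38.p6; Lyve1 did not. Each sequence runs 5′ to 3′ on the gene's own strand, from 250 bases before the start to 50 bases after it. Capitals mark the core GAGGAA of sites for PU.1, the transcription factor that macrophages share, on either strand (TTCCTC on the printed one).
Pf4, chr5:90772185-90772484, plus strand: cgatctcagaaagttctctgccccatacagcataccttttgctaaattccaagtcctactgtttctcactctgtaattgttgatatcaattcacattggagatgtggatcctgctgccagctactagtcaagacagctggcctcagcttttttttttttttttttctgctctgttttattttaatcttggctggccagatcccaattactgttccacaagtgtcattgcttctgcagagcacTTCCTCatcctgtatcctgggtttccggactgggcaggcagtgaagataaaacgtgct
Mrc1, chr2:14229164-14229463, plus strand: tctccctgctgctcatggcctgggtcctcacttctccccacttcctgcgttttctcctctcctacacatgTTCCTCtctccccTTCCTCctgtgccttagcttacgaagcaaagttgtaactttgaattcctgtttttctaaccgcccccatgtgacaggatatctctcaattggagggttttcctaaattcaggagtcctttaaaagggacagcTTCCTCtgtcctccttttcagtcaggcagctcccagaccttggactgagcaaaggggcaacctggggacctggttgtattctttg
P2ry12, chr3:59262936-59263235, minus strand: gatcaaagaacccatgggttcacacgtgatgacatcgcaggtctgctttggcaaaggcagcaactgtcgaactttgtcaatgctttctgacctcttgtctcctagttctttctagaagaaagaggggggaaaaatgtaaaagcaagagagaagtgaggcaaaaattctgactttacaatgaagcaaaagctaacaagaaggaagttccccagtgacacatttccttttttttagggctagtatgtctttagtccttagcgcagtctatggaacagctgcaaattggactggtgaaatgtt
Sparc, chr11:55420031-55420330, minus strand: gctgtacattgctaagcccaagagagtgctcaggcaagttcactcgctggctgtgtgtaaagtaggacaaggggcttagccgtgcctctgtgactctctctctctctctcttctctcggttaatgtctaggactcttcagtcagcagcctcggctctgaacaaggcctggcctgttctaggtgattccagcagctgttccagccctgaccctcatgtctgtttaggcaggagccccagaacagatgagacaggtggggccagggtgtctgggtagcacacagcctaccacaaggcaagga
The Mrc1 window held 3 matches, the Pf4 window 1, and the P2ry12 and Sparc windows 0. Of 27025 promoters listed by RefSeq, 28.3% held this core. The MAF half-site TGCTGAC, searched on both strands, was found in the Sparc window, before the start, and not in the other 3; 4.58% of all promoters held it. Neither the MEF2 core nor the AP-1 site TGANTCA was found in these 4 windows; 3.70% and 7.93% of all promoters held them. These letters are descriptions of the windows and say nothing about binding.

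TPM scales each gene by transcript length and each cell to the same total, so values can be set beside each other across genes, but how many reads stand behind each value is not known. Counting genes at 1 TPM or more, the median was 5260 per F13a1-high cell (380 to 6994) and 4833 per Sall1-high cell (3485 to 6344). Only 1 of the 76 cells, an F13a1-high cell with 380 genes, held under 1000. F13a1 itself ran between 112.6 and 22496 TPM in F13a1-high cells, with a median of 2441 TPM, and no Sall1-high cell exceeded 3.89 TPM. Sall1 was at most 0.960 TPM in F13a1-high cells, against 100.5 to 1275 TPM with a median of 377 TPM in Sall1-high cells. These values chose the cells and are given only to describe them. The 3 F13a1-high cells nearest the level held 112.6, 198.6 and 257.7 TPM of F13a1, and the 3 highest cells below it held 83.9, 43.6 and 39.9 TPM. The 3 Sall1-high cells nearest the level held 100.5, 113.8 and 126.8 TPM of Sall1, and the 3 highest below it 84.2, 74.1 and 72.2 TPM. The cell with 83.9 TPM of F13a1 held 49.1 TPM of Sall1.

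Both sets held genes that macrophages share, though not all at like levels, and the names border and microglia held for most of the cells. Cd68, a lysosomal membrane protein of macrophages, averaged 1225 TPM in F13a1-high cells and 1047 TPM in Sall1-high cells. Csf1r, the receptor for the growth factors CSF1 and IL-34, reached 100 TPM in 48 of 54 F13a1-high cells and in all 22 Sall1-high cells. Its mean was 626 TPM in F13a1-high cells, against 1159 TPM in Sall1-high cells. The complement subunit C1qb was at 3125 TPM in F13a1-high cells and 4622 TPM in Sall1-high cells. Of 10 measured genes of the sort and pan-macrophage list, 0 were higher in F13a1-high cells and 3 lower by the rule given below. The median log2 ratio of this list was -0.90, and the lower genes were Itgam, Cx3cr1 and Ptprc, the gene of CD45. Single levels per set are means over its cells unless a median is named.

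Per cell, the mean of log2(TPM + 1) over 27 border macrophage genes was set against the mean over 27 homeostatic microglia genes. The difference, border minus microglia, had a median of 2.62 in F13a1-high cells (range -2.70 to 4.23) and of -5.32 in Sall1-high cells (range -6.55 to -2.47). It was above 0 in 49 of 54 F13a1-high cells and below 0 in all 22 Sall1-high cells. The ranges overlapped through 1 F13a1-high cell, with 257.7 TPM of F13a1 and a difference of -2.70. Of the 5 F13a1-high cells below 0, another was the cell with 380 genes, at -2.19. This cell held genes of both kinds, with 4567 TPM of Pf4, 1842 TPM of Mrc1 and 6209 TPM of Stab1, and the highest Sparc (3544 TPM), Siglech (3128 TPM) and Ctss (5634 TPM) of all F13a1-high cells. A high level of F13a1 did not place a cell on the border side in every case, since the cell with the highest F13a1 lay at -0.63. The 50 cells with neither gene at the level had a median of -3.30 (range -6.62 to 1.002), and 34 of them fell within the range of the Sall1-high cells.

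**Figure D1:**
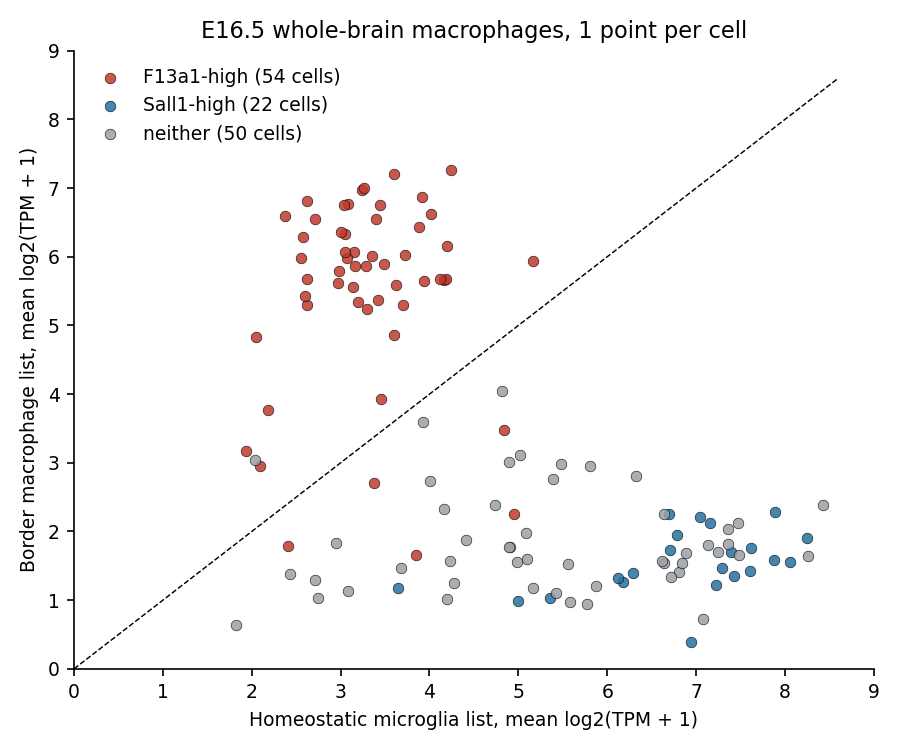
Each point is 1 E16.5 cell, placed by its mean log2(TPM + 1) over the homeostatic microglia list (horizontal axis) and over the border macrophage list (vertical axis), with a dashed line where both are equal. Of 54 F13a1-high cells 49 lie above the line, all 22 Sall1-high cells lie below it, and 49 of the 50 cells with neither gene lie below it.

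Genes whose mean reached 5 TPM in at least 1 of the sets counted as measured, and as higher or lower where both the log2 ratio of mean TPM (1 TPM added to each mean) and the difference of mean log2(TPM + 1) were 1 or more in size in the same direction. Of 11326 measured genes, 803 (7.09%) were higher in F13a1-high cells and 762 (6.73%) lower, and the median log2 ratio of all of them was 0.03. Of the 27 border macrophage genes, all measured, 23 were higher in F13a1-high cells and 0 lower, with a median log2 ratio of 4.54. Of the 27 homeostatic microglia genes, 0 lay higher and 23 lower, at a median of -3.34. Rescaling each cell to the median of its ratios over 1016 widely detected genes left 22 of the border genes higher and 15 of the microglia genes lower. With the same rescaling and without the cell of 380 genes, 22 border genes were higher and 22 microglia genes lower.

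**Figure D2:**
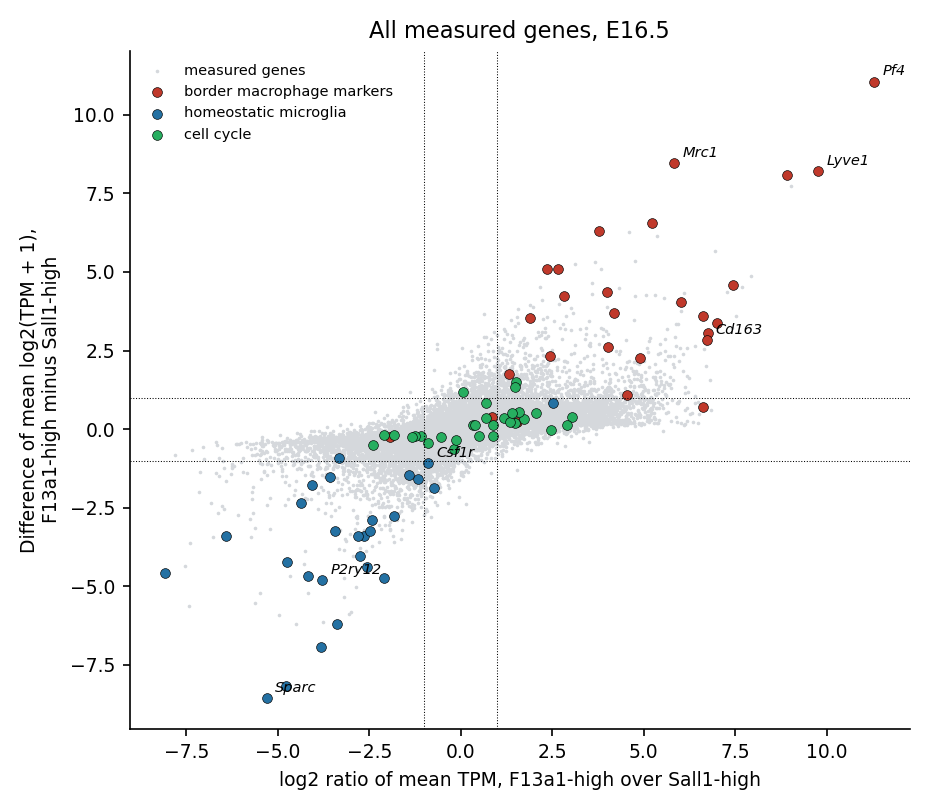
Each point is 1 of the 11326 measured genes, with the log2 ratio of mean TPM on the horizontal axis and the difference of mean log2(TPM + 1) on the vertical axis, both F13a1-high over or minus Sall1-high; dotted lines mark 1 and -1. Border macrophage genes lie at the upper right, with Pf4 at 11.30 and 11.06, homeostatic microglia genes lie mostly at the lower left, and cell cycle genes lie near the horizontal axis.

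The gene furthest apart on the border side was Pf4, platelet factor 4, a chemokine that is also made by megakaryocytes. It ran between 6.21 and 25071 TPM with a median of 8729 TPM in F13a1-high cells, and between 0 and 7.40 TPM with a median of 3.40 TPM in Sall1-high cells. All but 1 of the F13a1-high cells lay above every Sall1-high cell. Pf4 reached 100 TPM in 51 of 54 F13a1-high cells (94.4%, exact 95% interval 84.6% to 98.8%) and in 0 of 22 Sall1-high cells, a count that still allows a share of 13.6%. Intervals and limits of this kind cover only the counting error over cells. Its log2 ratio was 11.30.

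Lyve1, the hyaluronan receptor of lymphatic vessels and border macrophages, was the next. It ran between 0 and 5702 TPM with a median of 1236 TPM in F13a1-high cells, against 0 to 2.03 TPM with a median of 0.595 TPM in Sall1-high cells. At 100 TPM or more it was seen in 44 of 54 F13a1-high cells (81.5%, interval 68.6% to 90.7%) and in 0 of 22 Sall1-high cells. The 10 F13a1-high cells below that level show that Lyve1 was not uniform among them.

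Mrc1, the mannose receptor CD206, separated the cells less cleanly than Pf4 at its upper end. Its lowest, median and highest values were 15.8, 3200 and 9107 TPM in F13a1-high cells, and 0.340, 2.31 and 682 TPM in Sall1-high cells. It reached 100 TPM in 52 F13a1-high cells (96.3%, interval 87.3% to 99.5%) and in 3 Sall1-high cells (13.6%, interval 2.91% to 34.9%). The groups therefore overlapped, and Mrc1 alone at 100 TPM did not set them apart.

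The other leading genes of the F13a1-high cells fell into several roles. Ms4a7 and Ms4a4a, tetraspan membrane proteins of the Ms4a family, had medians of 782 and 884 TPM in F13a1-high cells and of 0.770 and 1.16 TPM in Sall1-high cells. Ednrb, the endothelin receptor B, was at 484 TPM on average in F13a1-high cells and 12.1 TPM in Sall1-high cells, where 1 cell gave 96.4% of the sum. Cd36, a scavenger receptor for lipids and oxidised lipoproteins, averaged 186.5 TPM in F13a1-high cells and was at 0.650 TPM or less in every Sall1-high cell. It was also uneven among the F13a1-high cells, with a median of 35.8 TPM.

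Fcna, ficolin A, a soluble lectin that can start the complement cascade, averaged 333 TPM in F13a1-high cells and 0.376 TPM in Sall1-high cells. Blvrb, the biliverdin reductase B of haem breakdown, had a median of 617 TPM in F13a1-high cells and of 0 TPM in Sall1-high cells. Lgals1, the galactoside-binding lectin galectin-1, reached 100 TPM in 39 F13a1-high cells and in 1 Sall1-high cell. Pmp22, a membrane protein best known from myelin, reached that level in 35 F13a1-high cells and in 0 Sall1-high cells. Serpinb6a, an intracellular serine protease inhibitor, did so in 31 F13a1-high cells and in 1 Sall1-high cell. In 10 of these 12 leading genes most F13a1-high cells reached 100 TPM, while Fcna did so in 25 and Cd36 in 19 of 54.

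**Figure D3:**
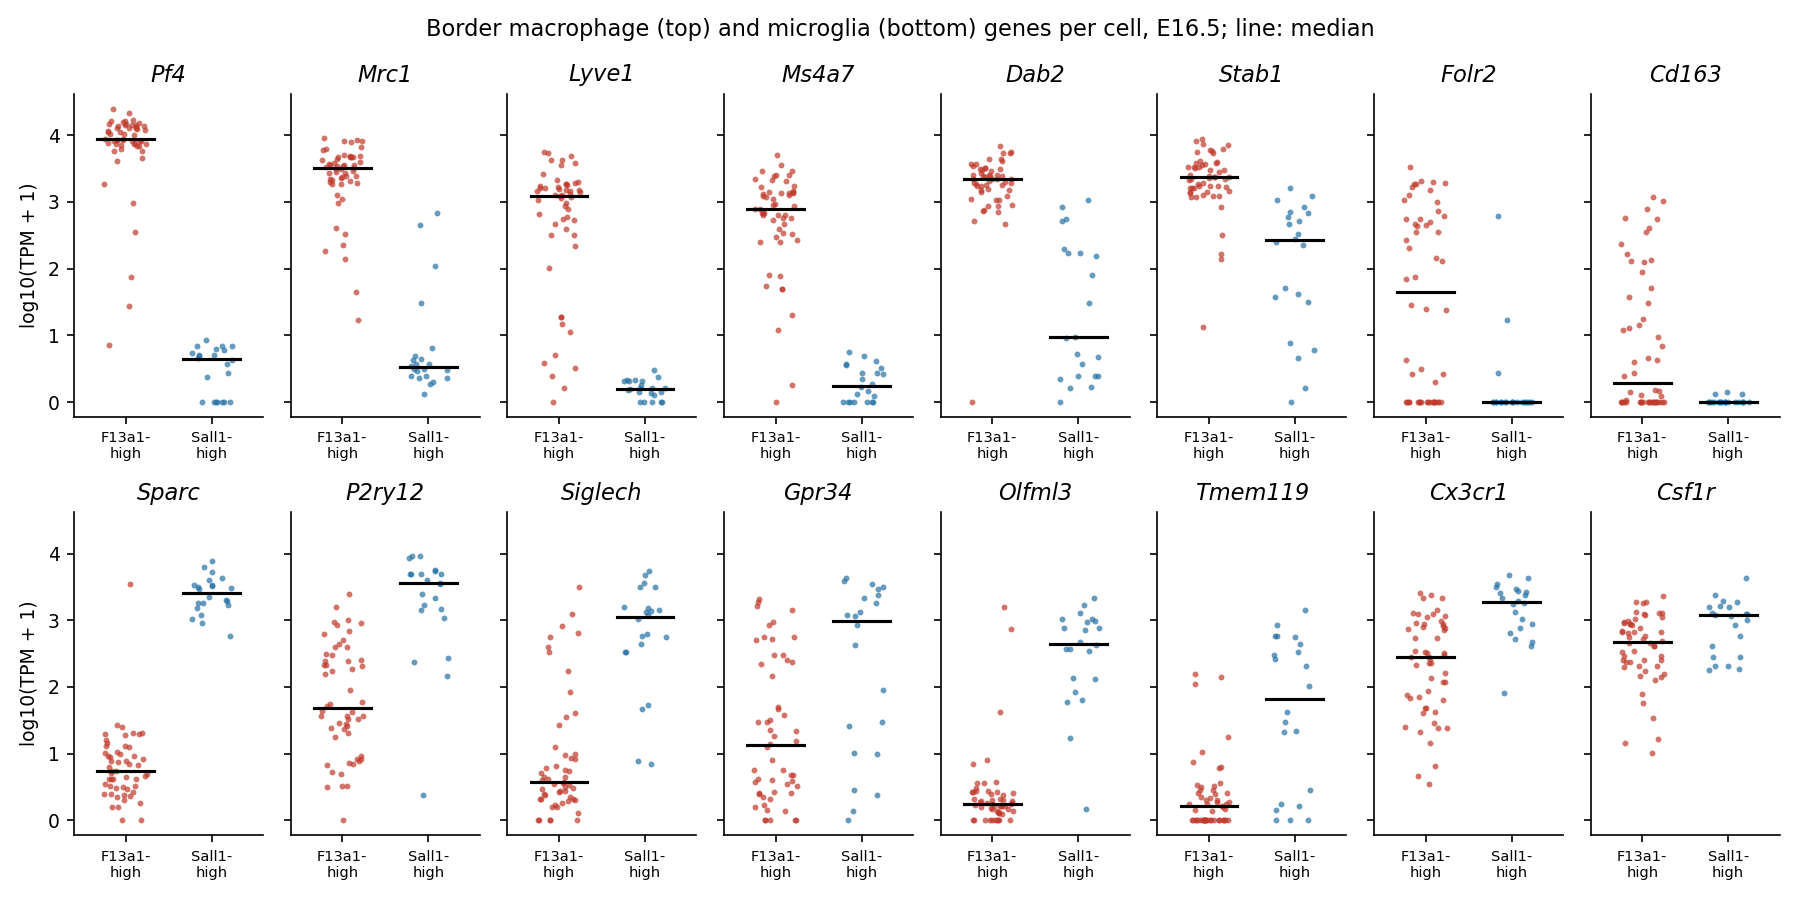
Each point is 1 cell and each line a median, on a log10(TPM + 1) axis, with the 54 F13a1-high cells left and the 22 Sall1-high cells right in each panel. Pf4, Lyve1 and Ms4a7 separate nearly all cells, Folr2 and Cd163 are high in some F13a1-high cells only, and P2ry12, Cx3cr1 and Csf1r overlap between the sets while Sparc overlaps in few cells.

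On the microglia side, Sparc, a secreted matrix protein, had the largest difference of mean log2 among the leading genes. It ran between 0 and 3544 TPM with a median of 4.50 TPM in F13a1-high cells, and between 569 and 7723 TPM with a median of 2585 TPM in Sall1-high cells. It reached 100 TPM in 1 of 54 F13a1-high cells (1.85%, interval 0.0469% to 9.89%) and in all 22 Sall1-high cells (interval 84.6% to 100%). That 1 cell, the one with 380 genes, gave 90.6% of the Sparc sum of the F13a1-high cells. The log2 ratio was -5.30 with this cell, -8.52 without it, and -0.26 when cells were rescaled to their median ratio with it among them.

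P2ry12, the ADP receptor used to mark microglia, was not exclusive to the Sall1-high cells. Its lowest, median and highest values were 0, 47.2 and 2464 TPM in F13a1-high cells, and 1.41, 3577 and 9161 TPM in Sall1-high cells. It reached 100 TPM in 23 of 54 F13a1-high cells (42.6%, interval 29.2% to 56.8%) and in 21 of 22 Sall1-high cells (95.5%, interval 77.2% to 99.9%). Of the 23 F13a1-high cells with P2ry12 at this level, 21 also held Pf4, 22 Mrc1, 20 Lyve1 and 0 Sparc at 100 TPM or more. Over all 54 F13a1-high cells the counts were 51 for Pf4, 52 for Mrc1, 44 for Lyve1 and 1 for Sparc. The cells with P2ry12 thus lay near the shares of the whole set. P2ry12 lies within Med12l, which is on the other strand, and how far this touches its value was not tested.

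Tmem119, a membrane protein of mature microglia, was uneven in the microglia set. It ran between 0 and 157.2 TPM with a median of 0.615 TPM in F13a1-high cells, against 0 to 1418 TPM with a median of 71.6 TPM in Sall1-high cells. It reached 100 TPM in 3 of 54 F13a1-high cells and 11 of 22 Sall1-high cells. Sall1-high cells at E16.5 therefore differed among themselves in Tmem119, while all of them held Sparc.

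The remaining leading genes of the Sall1-high cells were receptors, enzymes and secreted factors. Ccl4, an inflammatory chemokine, averaged 77.1 TPM in F13a1-high cells and 3494 TPM in Sall1-high cells, with a highest value of 30007 TPM in a Sall1-high cell. Lair1, an inhibitory receptor for collagen, had a highest value of 100.5 TPM in F13a1-high cells and a median of 95.9 TPM in Sall1-high cells. Gpr84, a receptor for medium-chain fatty acids, did not exceed 3.78 TPM in F13a1-high cells and reached 100 TPM in 8 of 22 Sall1-high cells. Lpcat2, an enzyme that remodels membrane phospholipids, reached that level in 0 F13a1-high cells and in 15 Sall1-high cells. Mpeg1, the pore-forming perforin-2 of macrophages, did so in 2 F13a1-high cells and in 15 Sall1-high cells. Cd9, a tetraspanin, had medians of 12.04 TPM in F13a1-high cells and 206.5 TPM in Sall1-high cells. Plxdc2, a transmembrane protein with a plexin domain, averaged 12.52 TPM in F13a1-high cells and 419 TPM in Sall1-high cells. Asph, an aspartate beta-hydroxylase, averaged 9.31 TPM in F13a1-high cells and 259.9 TPM in Sall1-high cells. Ecscr, a small membrane protein first described in endothelium, averaged 0.601 TPM in F13a1-high cells and 432 TPM in Sall1-high cells. These genes were uneven among the Sall1-high cells, with medians of 154.7 TPM for Plxdc2, 90.4 TPM for Asph and 17.4 TPM for Ecscr. Ecscr reached 100 TPM in 10 of the 22 Sall1-high cells.

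Of 15 measured scavenger and endocytic receptors, 8 were higher in F13a1-high cells and 3 lower, with a median log2 ratio of 2.82. Stab1, stabilin-1, ran between 12.1 and 8894 TPM with a median of 2329 TPM in F13a1-high cells, and between 0 and 1593 TPM with a median of 264.6 TPM in Sall1-high cells. Dab2, a clathrin adaptor for endocytosis, had medians of 2180 TPM in F13a1-high cells and 8.31 TPM in Sall1-high cells, and reached 100 TPM in 53 of 54 F13a1-high cells and 8 of 22 Sall1-high cells. Msr1, scavenger receptor A, had a median of 104.6 TPM in F13a1-high cells and of 0 TPM in Sall1-high cells. The 3 lower ones were Lrp1, Axl and Scarb2; Lrp1, a large endocytic receptor, averaged 16.8 TPM in F13a1-high cells and 126.05 TPM in Sall1-high cells. Mertk, a receptor for apoptotic cells, was not called, at 82.6 TPM in F13a1-high cells and 139.3 TPM in Sall1-high cells.

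Of 14 measured C-type lectins, 6 were higher in F13a1-high cells and 0 lower (median 2.08). They were Mrc1, Clec10a, Mgl2, Colec12, Clec4n and Clec4a2. Clec10a, a galactose-type lectin, averaged 181.1 TPM in F13a1-high cells and 0.842 TPM in Sall1-high cells, and its near copy Mgl2 averaged 156.4 TPM in F13a1-high cells and 0.229 TPM in Sall1-high cells. Reads of these 2 genes may be split uncertainly between them. Among F13a1-high cells, Clec10a reached 100 TPM in 20, Mgl2 in 17, and both in 10. Of 9 measured Ms4a genes 5 were higher and 0 lower (median 2.36).

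Some border markers, among them Folr2 and Cd163, were high in only a fraction of the F13a1-high cells. Folr2, folate receptor beta, reached 100 TPM in 25 of 54 F13a1-high cells and 1 of 22 Sall1-high cells. Cd163, the haemoglobin-haptoglobin scavenger receptor, reached it in 12 F13a1-high cells and 0 Sall1-high cells, where the highest value was 0.420 TPM. Of the 12 F13a1-high cells with Cd163, 5 also held Folr2, near its share of 25 of 54 over the whole set. Lyve1 was held by 24 of the 25 with Folr2 and 11 of the 12 with Cd163, beside 44 of all 54. Whether these markers define separate cells was not tested. Timd4, a phosphatidylserine receptor, reached 100 TPM in 2 F13a1-high cells and was listed at 0 in every Sall1-high cell.

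Purinergic receptors and ion channels lay on the other side, with 0 of 13 measured genes higher in F13a1-high cells and 7 lower (median -2.48). P2ry13, a second ADP receptor, averaged 172.1 TPM in F13a1-high cells and 1174 TPM in Sall1-high cells. Gpr34, a receptor for lysophosphatidylserine, averaged 236.4 TPM in F13a1-high cells and 1327 TPM in Sall1-high cells. Entpd1, the ectonucleotidase CD39, averaged 89.5 TPM in F13a1-high cells and 593 TPM in Sall1-high cells. The ATP-gated channel P2rx4 was not called, at 162.3 TPM in F13a1-high cells and 78.3 TPM in Sall1-high cells.

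Siglecs and Fc receptors were divided, with 2 of 12 measured genes higher in F13a1-high cells and 4 lower (median -0.66). Fcgrt, the neonatal Fc receptor that recycles IgG and albumin, had medians of 569 TPM in F13a1-high cells and 1.91 TPM in Sall1-high cells. Fcgr2b, the inhibitory Fc receptor, averaged 366 TPM in F13a1-high cells and 69.6 TPM in Sall1-high cells. Siglech, a sialic acid-binding lectin, had medians of 2.71 TPM in F13a1-high cells and 1117 TPM in Sall1-high cells. Its log2 ratio was -3.39, and it turned to 0.55 when cells were rescaled to their median ratio with the cell of 380 genes among them.

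Cx3cr1, Itgam and Itgb2 were lower in F13a1-high cells without being absent from them, while other chemokine and complement receptors differed in direction. Cx3cr1, the fractalkine receptor, ran between 2.54 and 2569 TPM with a median of 278 TPM in F13a1-high cells, and between 80.9 and 4836 TPM with a median of 1880 TPM in Sall1-high cells. Itgam, the CD11b chain used in the sort, had medians of 1.62 TPM in F13a1-high cells and 251.9 TPM in Sall1-high cells. Its partner Itgb2 averaged 19.3 TPM in F13a1-high cells and 143.4 TPM in Sall1-high cells. Of 17 measured chemokine receptors and adhesion genes 4 were higher in F13a1-high cells and 5 lower, and of 13 measured complement genes 2 were higher in F13a1-high cells and 2 lower. The higher ones were C5ar1, the C5a receptor, at 387 TPM in F13a1-high cells and 134.02 TPM in Sall1-high cells, and Cfp, properdin, at 204.3 TPM in F13a1-high cells and listed at 0 in every Sall1-high cell.

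Chemokines differed in kind between the sets. Of 15 measured, Pf4, Ccl7, Ccl24 and Cxcl2 were higher in F13a1-high cells and Ccl3 and Ccl4 lower. Ccl7, a ligand of Ccr2, ran between 0 and 6908 TPM in F13a1-high cells and reached 100 TPM in 20 of 54, and in Sall1-high cells 1 cell held 99.6% of the sum. Ccl3 had medians of 58.9 TPM in F13a1-high cells and 548 TPM in Sall1-high cells, with 100 TPM or more in 24 of 54 F13a1-high cells and 19 of 22 Sall1-high cells. Ccl2 was not called by the ratio of means, at 2738 TPM in F13a1-high cells and 1749 TPM in Sall1-high cells, while its median was 1060 TPM in F13a1-high cells and 3.16 TPM in Sall1-high cells. Among F13a1-high cells 34 held Ccl2, 20 held Ccl7 and 16 both at 100 TPM or more. Ccr1, a receptor for several of these chemokines, averaged 206.3 TPM in F13a1-high cells and 41.1 TPM in Sall1-high cells. Of 19 measured inflammatory cytokine and NF-kB genes 0 were higher and 4 lower, namely Il1a, Csf1, Il10ra and Cd83. Il1a, interleukin 1 alpha, reached 100 TPM in 1 of 54 F13a1-high cells and 6 of 22 Sall1-high cells.

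Transcription factors were called in both directions. Of 25 measured besides Sall1, 8 were higher in F13a1-high cells and 4 lower, with a median log2 ratio of 0.33. Sall3, a relative of Sall1, averaged 0.0683 TPM in F13a1-high cells and 12.49 TPM in Sall1-high cells, where 1 cell gave 71.7% of the sum. Irf8, a factor that microglia need, had medians of 8.79 TPM in F13a1-high cells and 103.9 TPM in Sall1-high cells. Ikzf1, the zinc finger factor Ikaros, averaged 18.2 TPM in F13a1-high cells and 85.8 TPM in Sall1-high cells. Among the higher ones, Etv1, an ETS factor, averaged 61.4 TPM in F13a1-high cells and 12.2 TPM in Sall1-high cells, and Klf6, a zinc finger factor, had medians of 180.7 TPM in F13a1-high cells and 36.8 TPM in Sall1-high cells. Klf2 and Klf4 of the same family were higher too, as were Tfec and Mitf, which belong to 1 family of helix-loop-helix factors, with Lyl1 and Rxra. Maf was not called, at 1606 TPM in F13a1-high cells and 747 TPM in Sall1-high cells. Spi1, which encodes PU.1, was not called either, at 28.3 TPM in F13a1-high cells and 95.5 TPM in Sall1-high cells.

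Among 21 measured genes of TGF-beta and BMP signalling, 1 was higher in F13a1-high cells and 5 lower (median -0.95). Tgfbr1, the type I TGF-beta receptor, had medians of 14.8 TPM in F13a1-high cells and 244.7 TPM in Sall1-high cells, and Tgfbr2, the type II receptor, averaged 45.8 TPM in F13a1-high cells and 136.3 TPM in Sall1-high cells. The call of Tgfbr2 was lost under 7 of 14 alternatives, with log2 ratios between -1.68 and -1.20 in these, against -1.55 as reported. Skil, an inhibitor of SMAD proteins, averaged 19.7 TPM in F13a1-high cells and 129.8 TPM in Sall1-high cells. The higher gene was Nrros, which tethers latent TGF-beta 1 on macrophages, with medians of 116.5 TPM in F13a1-high cells and 3.20 TPM in Sall1-high cells. Itgb5, an integrin beta subunit, and Acvrl1, a type I receptor of the family, were the other lower ones.

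Iron and haem handling genes lay towards the border side, with 6 of 14 measured genes higher in F13a1-high cells and 0 lower (median 1.35). Besides Cd163 and Blvrb these were Hmox1, haem oxygenase 1, Blvra, biliverdin reductase A, Trf, transferrin, and Cp, ceruloplasmin. Blvra had medians of 222.4 TPM in F13a1-high cells and 0.325 TPM in Sall1-high cells. Trf had medians of 1171 TPM in F13a1-high cells and 60.5 TPM in Sall1-high cells. Hmox1 averaged 133.8 TPM in F13a1-high cells and 42.5 TPM in Sall1-high cells, with 11 F13a1-high cells and 2 Sall1-high cells at 100 TPM or more. Cp rested on few cells, with 9 of 54 F13a1-high cells at 100 TPM. Its log2 ratio was 4.54 against Sall1-high cells. Against all E16.5 cells under 100 TPM of F13a1 the Cp ratio turned to -3.12, and its call was lost. The ferritin light chain Ftl1 was at 8161 TPM in F13a1-high cells and 6357 TPM in Sall1-high cells and was not called.

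Growth factors and matrix genes included 9 higher and 4 lower in F13a1-high cells, of 24 measured (median 0.79). Igf1, insulin-like growth factor 1, had medians of 131.99 TPM in F13a1-high cells and 0.225 TPM in Sall1-high cells, and reached 100 TPM in 29 of 54 F13a1-high cells and 1 of 22 Sall1-high cells. Gas6, a ligand of Axl and Mertk, had medians of 191.3 TPM in F13a1-high cells and 1.63 TPM in Sall1-high cells. Pros1, protein S, a second such ligand, averaged 50.8 TPM in F13a1-high cells and 104.4 TPM in Sall1-high cells. Cyr61, a matricellular protein, averaged 95.1 TPM in F13a1-high cells and 3.17 TPM in Sall1-high cells. Pdgfb, a platelet-derived growth factor chain, averaged 0.485 TPM in F13a1-high cells and 75.3 TPM in Sall1-high cells.

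Of 20 measured lysosomal genes 1 was higher in F13a1-high cells and 5 lower (Ctsl, Ctss, Ctsd, Ctsz and Laptm5). None of the 5 was called under the median-ratio rescaling with the cell of 380 genes among the cells, and all but Laptm5 were called under it without that cell. Ctsl, cathepsin L, had medians of 208.6 TPM in F13a1-high cells and 1682 TPM in Sall1-high cells. Ctss, cathepsin S, had medians of 924 TPM in F13a1-high cells and 5437 TPM in Sall1-high cells, a log2 ratio of means of -2.08 that became 0.082 under the rescaling with the cell of 380 genes. Ctsc, cathepsin C, was the higher one, with medians of 842 TPM in F13a1-high cells and 417 TPM in Sall1-high cells. Its log2 ratio lay at the limit of the rule, and the call was lost under 6 of 14 alternatives, among them the choice of cells at 50 or 200 TPM.

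Lipid handling genes were divided, with 4 of 23 measured genes higher in F13a1-high cells and 4 lower. Apoe, the main lipid carrier of the brain, averaged 4176 TPM in F13a1-high cells and 2536 TPM in Sall1-high cells and was not called. Ptgs1, cyclooxygenase 1, had medians of 5.26 TPM in F13a1-high cells and 227.8 TPM in Sall1-high cells. Hpgd, which breaks down prostaglandins, had medians of 88.7 TPM in F13a1-high cells and 3.09 TPM in Sall1-high cells. Of 24 measured genes of the disease-associated microglia list, 2 were higher in F13a1-high cells and 9 lower. Trem2, a lipid-sensing receptor, averaged 99.7 TPM in F13a1-high cells and 599 TPM in Sall1-high cells, and Cd52, a small surface glycoprotein, 56.3 TPM in F13a1-high cells and 750 TPM in Sall1-high cells.

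Several lists showed little. Of 30 cell cycle genes, all measured, 2 were higher in F13a1-high cells and 0 lower; the proliferation marker Mki67 was at 1 TPM or more in 12 of 54 F13a1-high cells and 5 of 22 Sall1-high cells. Of 14 measured glycolysis genes 0 were higher and 1, Aldoa, lower. Of 14 measured MHC class I genes 0 were higher and 1, H2-Q6, lower, with 86.9% of its sum in 1 of the Sall1-high cells. Of 20 measured interferon response genes 2 were higher and 1 lower, and the higher gene Ifitm2, a membrane protein that restricts viral entry, had medians of 531 TPM in F13a1-high cells and 0 TPM in Sall1-high cells. Of 82 measured ribosomal protein genes 2 were higher and 0 lower, and of 18 immediate early genes 3 were higher and 3 lower.

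**Figure D4:**
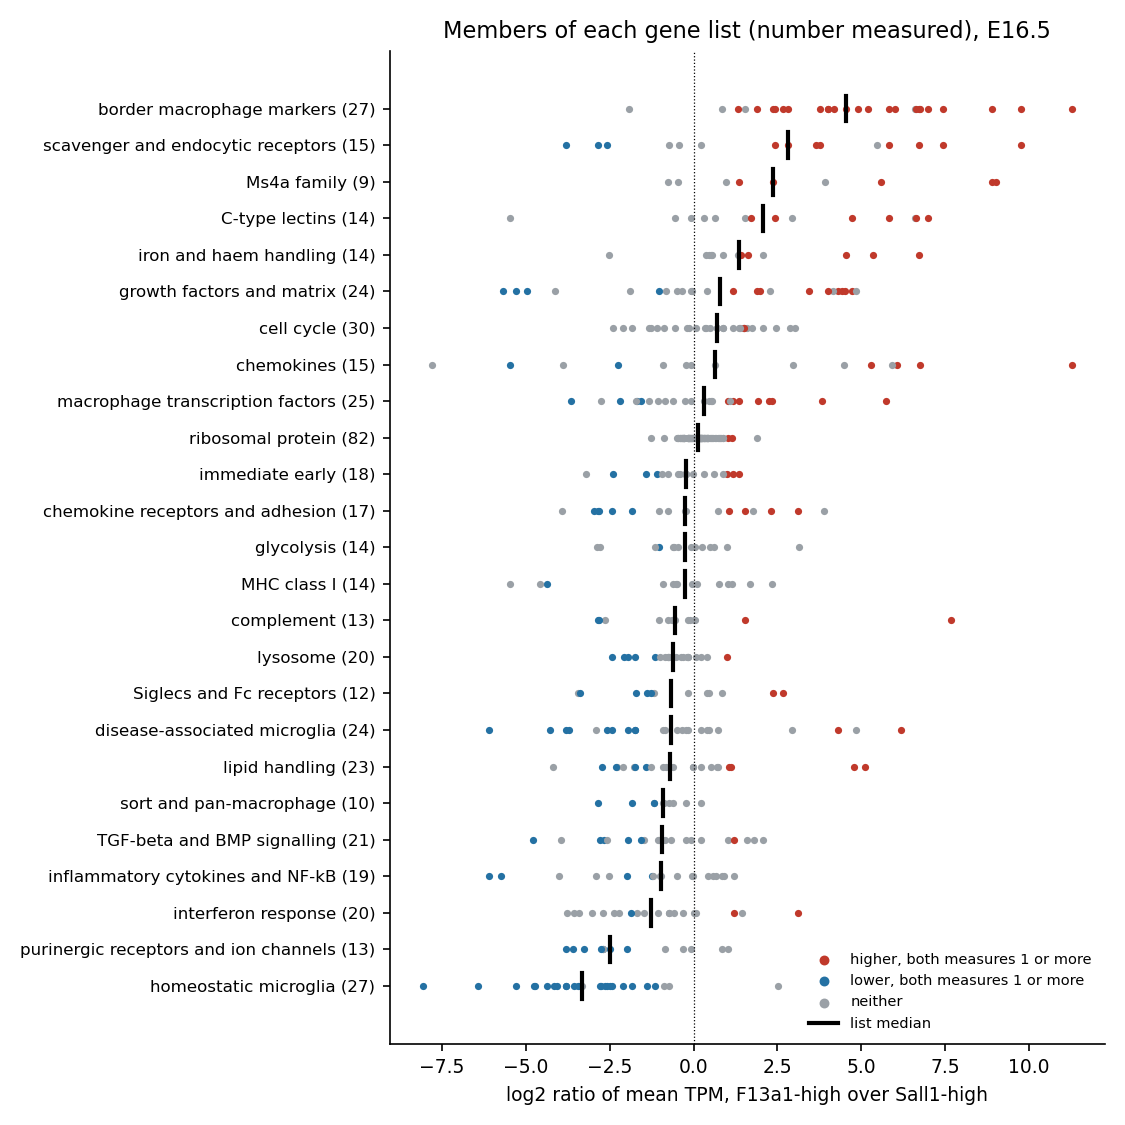
Each point is a measured member of a gene list, placed by its log2 ratio of mean TPM, F13a1-high over Sall1-high, and coloured by whether both measures reached 1; black bars are list medians and the dotted line is the median of all measured genes, 0.03. Among the lists plotted, those with 9 or more measured members, border macrophage genes have the highest median (4.54), scavenger receptors the next (2.82), and homeostatic microglia genes the lowest (-3.34).

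Markers of other cell types were low in most cells of both sets. For endothelial, mural, NK and mast cell markers, the summed level per cell did not exceed 32.2 TPM in F13a1-high cells or 20.3 TPM in Sall1-high cells. Neuronal markers had a median sum of 0.445 TPM in F13a1-high cells and 0.660 TPM in Sall1-high cells, and 1 F13a1-high cell held 2595 TPM. Erythroid markers reached 100 TPM in 3 of 54 F13a1-high cells and 0 of 22 Sall1-high cells, and choroid plexus markers in 2 F13a1-high cells and 0 Sall1-high cells. Astrocyte markers reached it in 8 F13a1-high cells and 0 Sall1-high cells, and 1 of them, Gja1, a gap junction protein, was called higher, with means of 32.6 TPM in F13a1-high cells and 1.76 TPM in Sall1-high cells. T cell markers reached it in 7 F13a1-high cells and 0 Sall1-high cells, with 3 of 8 markers listed at 0 in every cell of each set. Oligodendrocyte lineage markers reached it in 9 F13a1-high cells and 4 Sall1-high cells. Neutrophil markers reached it in 2 F13a1-high cells and 6 Sall1-high cells through Csf3r, a cytokine receptor gene, which was called lower, with means of 28.03 TPM in F13a1-high cells and 210.4 TPM in Sall1-high cells. Monocyte markers reached it in 4 F13a1-high cells and 2 Sall1-high cells, with the gate's Ly6c2 at no more than 4.44 TPM in F13a1-high cells and listed at 0 in Sall1-high cells. B cell markers reached it in 14 F13a1-high cells and 7 Sall1-high cells through Cd79b, while Pax5 was listed at 0 in every cell. Neural progenitor markers reached it in 19 F13a1-high cells and 5 Sall1-high cells, with Pax6 at medians of 42.6 TPM in F13a1-high cells and 41.02 TPM in Sall1-high cells; of these markers Vim was called higher and Nes lower in F13a1-high cells. What these markers contribute to the differences was not tested. Xist without Y-linked genes, at 100 TPM, was seen in 14 F13a1-high cells and 4 Sall1-high cells. Y-linked genes without Xist were seen in 11 F13a1-high cells and 8 Sall1-high cells, and 1 F13a1-high cell held both kinds. At 1 TPM, both kinds were seen in 21 of 54 F13a1-high cells and 10 of 22 Sall1-high cells. Why so many cells held both at the lower level was not tested.

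Among the 50 cells with neither gene at 100 TPM, microglia markers were more widespread than border markers. P2ry12 reached 100 TPM in 34 of them and Sparc in 32, against Mrc1 in 20, Pf4 in 5 and Lyve1 in 1. Mrc1 and Sparc were both at that level in 12 of these 50 cells, in 1 of 54 F13a1-high cells and in 3 of 22 Sall1-high cells. With all E16.5 cells below 100 TPM of F13a1 as the comparison, 22 border genes were higher and 20 microglia genes lower, while 287 genes in all were lower, against 762 with Sall1-high cells alone.

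The same rule was applied to the other embryonic cells, which had no part in choosing the E16.5 genes. Whole brain at E12.5 gave 76 F13a1-high and 4 Sall1-high cells, and thalamus at E18.5 gave 5 F13a1-high and 11 Sall1-high cells of 50, with 0 cells holding both genes. Visual cortex at E18.5 held 3 F13a1-high cells and 1 Sall1-high cell, and hippocampus at E18.5 held 0 F13a1-high cells and 1 Sall1-high cell, too few for a ratio. At E12.5, with only 4 cells on 1 side, 25% of 10043 measured genes were higher and 12.6% lower; in E18.5 thalamus 16.7% of 7034 were higher and 31% lower. The median log2 ratio of all measured genes was 1.83 at E12.5 and -1.91 in E18.5 thalamus. Calls kept the same limits around 0 and were not adjusted for these medians.

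All 12 leading border genes were higher at E12.5 and in E18.5 thalamus too, although at E12.5 the log2 ratio of Ms4a4a lay below the median of all measured genes and that of Mrc1, 1.92, close to it. Of the 12 leading microglia genes, 11 were lower at E12.5 and 12 in E18.5 thalamus. The exception was Ccl4, with means of 103.8 TPM in E12.5 F13a1-high cells and 3.50 TPM in E12.5 Sall1-high cells. Its median was 0 in both E12.5 sets, and 11 of 76 F13a1-high cells and 0 of 4 Sall1-high cells reached 100 TPM. In E18.5 thalamus Ccl4 averaged 2.13 TPM in F13a1-high cells and 3913 TPM in Sall1-high cells. By its means Ccl3 had the same direction as Ccl4 at E12.5, with 248.7 TPM in F13a1-high cells and 8.50 TPM in Sall1-high cells. Of the 27 border genes, 20 of 24 measured were higher at E12.5 and 1 lower, and 22 of 24 were higher in thalamus and 0 lower. Of the microglia genes, 20 of 27 measured were lower at E12.5 and 1 higher, and 24 of 26 were lower in thalamus and 1 higher.

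Single markers differed with age within each type. Lyve1 reached 100 TPM in 28 of 76 F13a1-high cells at E12.5, in 44 of 54 at E16.5 and in 4 of 5 in E18.5 thalamus. Cd163 had a mean of 0.323 TPM in F13a1-high cells at E12.5, of 110.4 TPM at E16.5 and of 381 TPM in E18.5 thalamus. Sparc was at 1483, 1509, 2073 and 4000 TPM in the 4 Sall1-high cells at E12.5, above every F13a1-high cell there. These values lay within the range of the E16.5 Sall1-high cells, 569 to 7723 TPM. The whole-brain and thalamic sets differ in region and read layout as well as age, which cannot be told apart.

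**Figure D5:**
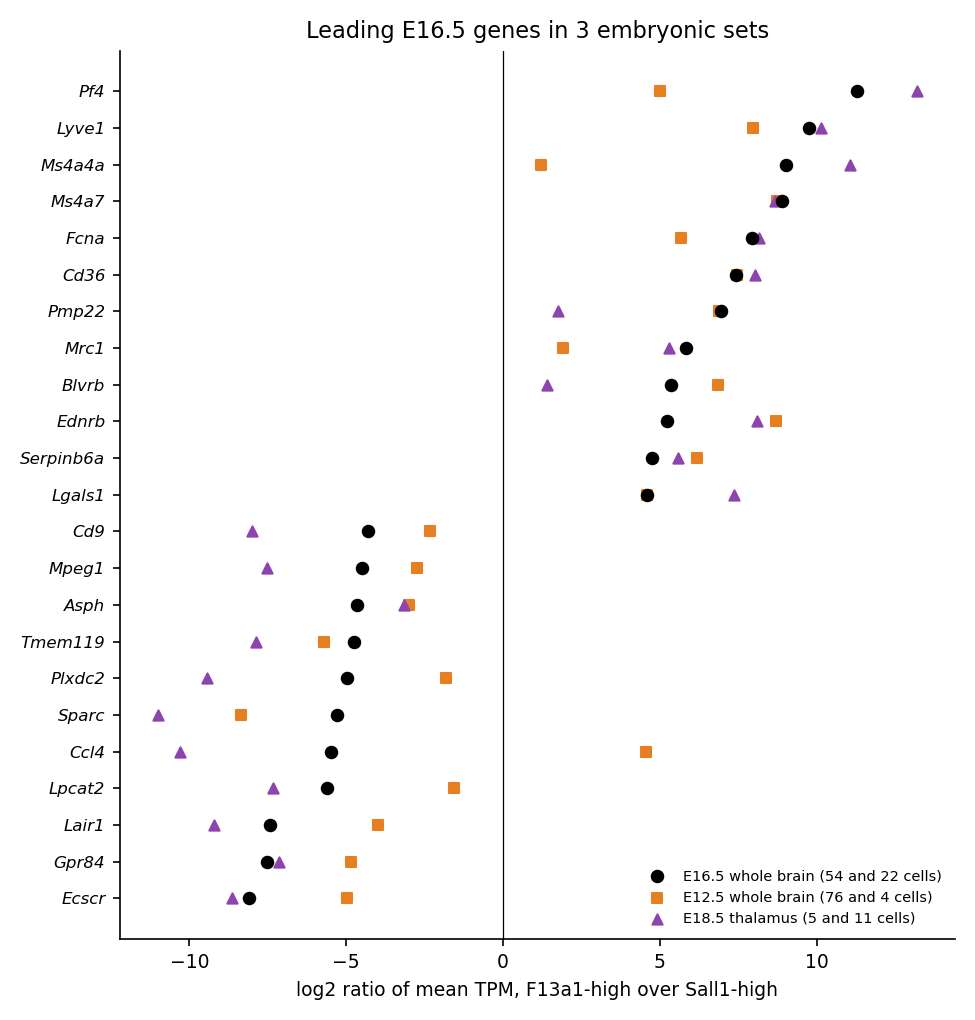
Log2 ratio of mean TPM (1 TPM added to each mean), F13a1-high over Sall1-high, for the 12 leading border genes and 11 of the 12 leading microglia genes at E16.5 (circles), in E12.5 whole brain (squares) and in E18.5 thalamus (triangles). All 12 border genes lie right of 0 in each set, and Ccl4 at E12.5 is the single point of the microglia genes shown that lies right of 0.

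Over all genes the agreement was partial. Of the 803 genes higher at E16.5, 346 of 761 measured (45.5%) were higher at E12.5 and 50 (6.57%) lower, beside the 25% and 12.6% of all genes there. In E18.5 thalamus 34.3% of the 623 measured were higher and 18.8% lower, beside 16.7% and 31%. Of the 762 genes lower at E16.5, 28.1% of the 658 measured were lower at E12.5 and 16.1% higher. In thalamus 53.03% of the 545 measured were lower and 6.61% higher.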

How the data were processed

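Per the labels' protocols, sorted macrophages were isolated one by one with the Fluidigm C1 system, and Nextera XT was used for the libraries. The authors deposited 1 table of TPM values for 43280 gene names. Build GRCm38, Seurat and RSEM 1.2.19 appear in the submitters' processing notes. The aligner, annotation and filters were not given in the sources used here. TPM keeps no depth and the libraries carry no molecular identifiers, so read numbers are unknown. Without strand information, overlapping genes cannot be separated. Reads may be split uncertainly between the near copies Clec10a and Mgl2, and to an unknown extent between related genes such as Ccl3 and Ccl4.

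Of 1617 columns, the 365 of embryonic cells were used; the later ages are not used here, although the plan was to apply the rule to every group. Some genes are not reported here. All cells were kept and no doublet caller was run. Cells are not replicates, so no p-value, SD or standard error was computed; shares carry exact Clopper-Pearson 95% intervals, and the limit of a share of 0 is that of 3 counts. The measures and the rule for higher and lower are given with the first counts; adding 1 TPM understates differences of low genes. Named genes are the first 12 in each direction by the smaller of both measures (mean of 50 TPM or more and 1 TPM or more in at least 50% of cells of the higher set, leaving out Xist, pseudogenes and Y-linked, predicted, ribosomal protein and mitochondrial genes), up to 2 per list and direction, the markers that define the sets, and members behind a count. The cells, gene lists and rules were chosen with earlier results of these data known, and the lists are not independent evidence. The measures were tested on simulated data with planted changes well above the limit for a call, so changes near that limit were not tested. Positions and overlaps come from GENCODE M21. The tools were matplotlib 3.10.9, scipy 1.17.1, pandas 2.3.3 and numpy 2.4.6 in Python 3.11.15.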

Additional observations from a re-analysis of the deposited data

Results flagged for a closer look

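Among the values given over sets of 4 or 5 cells, 3 of 6 held a cell further from the rest than Dixon's 95% critical value allows. That value assumes normally distributed values, which TPM of single cells with many values of 0 are not. Where all other cells are at 0, it is passed whatever the level of the last cell. No excess over chance can therefore be read from this count. In E12.5 Sall1-high cells, Ccl4 was 13.98 TPM in 1 cell and 0 in the other 3, and Ccl3 was 33.99 TPM in 1 cell and 0 in the other 3. In F13a1-high cells of E18.5 thalamus, Lyve1 was 4405 TPM in 1 cell, with 701 TPM as the next highest of 5.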

How the results depend on the processing

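The border and microglia list medians kept their signs under all 13 alternatives planned and under 1 chosen after the data were seen, the rescaling without cells under 1000 genes. With the ratio of mean TPM alone, 3535 genes were higher and 3037 lower; with both measures at 1.5-fold, 1798 were higher and 1812 lower; with all E16.5 cells under 100 TPM of F13a1 as the comparison, 287 were lower. The other alternatives gave counts within 1.5 times those reported. The border median was 5.31 with 0.1 TPM added, 3.58 with 10 TPM added, 3.60 as the difference of mean log2, and 3.84 against all cells under 100 TPM of F13a1. The microglia median was -2.48 with 10 TPM added, -2.67 with cells chosen at 200 TPM, -2.20 under the median-ratio rescaling, and -2.51 against all cells under 100 TPM of F13a1. The rescaling moved the median of all measured genes to 0.33 (0.26 without the cell of 380 genes), against 0.03 as deposited. Under the rescaling, signs turned for Siglech (0.55) and Ctss (0.082), among other list members. Against all cells under 100 TPM of F13a1 they turned for Hmgb2 (-0.10) and Cp (-3.12), again among others. Medians of 5 lists turned as well, all with few measured genes as reported. These were 3 for MHC class II, 2 for B cell, and 1 each for neutrophil, erythroid and neuron. MHC class II went from -2.08 to 0.0155 with no filter and to 0.082 under the rescaling. Neutrophil went from -2.86 to 0.0252 with no filter. Against all cells under 100 TPM of F13a1, B cell went from -2.31 to 0.27, erythroid from 2.69 to -0.0397 and neuron from 5.53 to -1.28. Erythroid was also at -0.95 with cells chosen at 50 TPM. The cause was not tested. Of the list members called, 28 were not called the same way under the rescaling, 4 without cells under 1000 genes and 33 against all cells under 100 TPM of F13a1. No paired analysis was possible because each set of cells is 1 sample and the labels give no replicate numbers. The number of cells, 22 at most on the Sall1-high side, limits every share.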
